A study of Spirodela polyrhiza and Pistia stratiotes and Colocasia esculenta with 79 samples.

Results

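The Tract of the Spirodela polyrhiza frond was compared with its LowerWall, each represented by 4 RNA-seq libraries chosen by their region label, 8 of the 28 Spirodela libraries and of the 79 libraries of a study of body regions in 4 plants of the arum family. Spirodela polyrhiza is the greater duckweed, a floating plant without leaves and stem in the usual sense, and all libraries here came from the clone labelled 9509, and the labels give no treatment. For Tract the labels state growth at 22 °C under fluorescent lamps, whereas the text given for LowerWall is silent on growth. Both groups were cut from the frond and kept in RNAlater. RNA was extracted on a micro-scale column, and poly-A mRNA was made into libraries with fragments of 370 to 420 bp. The labels call the replicates biological without saying whether they came from separate cultures or how many fronds were pooled. The p-values therefore measure the spread between libraries, which for single transcripts was taken over all 28 Spirodela libraries.

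The Tract and Node libraries carry protocol texts of their own, apart from those of LowerWall, Apical, Basal, NodeTract and Stipe. Region and label set therefore cannot be told apart in the comparison of Tract with LowerWall, and whatever the label sets share (growth, dissection, extraction or sequencing run) cannot be told apart from region either. NodeTract, a piece labelled with both names, belongs to the label set of LowerWall. Its levels are given beside many of the results for that reason.

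As background, a duckweed frond is a fused, leaf-like body. Its node is a much reduced axis from which roots, veins and new fronds arise, the last of these budding inside pockets. A stipe, or stalk, ties each daughter to its mother. The labels do not define where the Tract and LowerWall cuts lay. Transcripts are known here by the identifiers of the deposited table, which pairs none with a gene name, so no role is given to any of them and the regions could not be checked against marker genes. Levels are in TPM, a length-scaled unit of relative transcript abundance that sums to about the same total in each library and keeps no read depth. In bulk tissue, fewer cells of a type and less RNA per cell cannot be told apart.

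One library of each region stood apart from the others. Tract replicate 1 had 27% of its TPM in its 10 most abundant transcripts, against 15.9% to 16.5% in the other Tract libraries and 16.7% to 19.5% in LowerWall. It also had the fewest transcripts at 1 TPM or more of the 4, 13598 against 14435 to 14684 in the other Tract libraries. LowerWall replicate 1 had the lowest mean correlation with its own region, a Pearson r of 0.896 across transcripts on the log2(TPM + 1) scale, against 0.924 to 0.939 for the other LowerWall libraries. The median within-region SD on that scale was 0.409 in Tract and 0.364 in LowerWall, and 0.322 and 0.248 without the replicate 1 libraries. The counts of calls and of large differences are given with and without those 2 libraries.

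The number of transcripts detected overlapped between the regions. Tract libraries had 14332 ± 500.4 transcripts at 1 TPM or more, and LowerWall libraries 13908.5 ± 286 (SD, n = 4 each; two-sided exact permutation p = 0.200, adjusted p = 0.400 over 2 library measures). The 10 most abundant transcripts held 19.0 ± 5.37% of the TPM in Tract and 17.8 ± 1.21% in LowerWall (SD, n = 4 each; exact permutation p = 1.00, adjusted p = 1.00). The smallest p that 4 against 4 libraries can give is 0.0286. Without Tract replicate 1 the difference in share was -1.44 percentage points, Tract then being the lower, against 1.24 with it. Both means lay between those of Apical and Basal, with 12750.5 ± 131 detected transcripts in Apical and 12996 ± 177 in Basal, and those of Node and NodeTract, with 14834 ± 90.7 in Node and 14808.5 ± 99.2 in NodeTract (SD, n = 4 each).

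**Figure D1:**
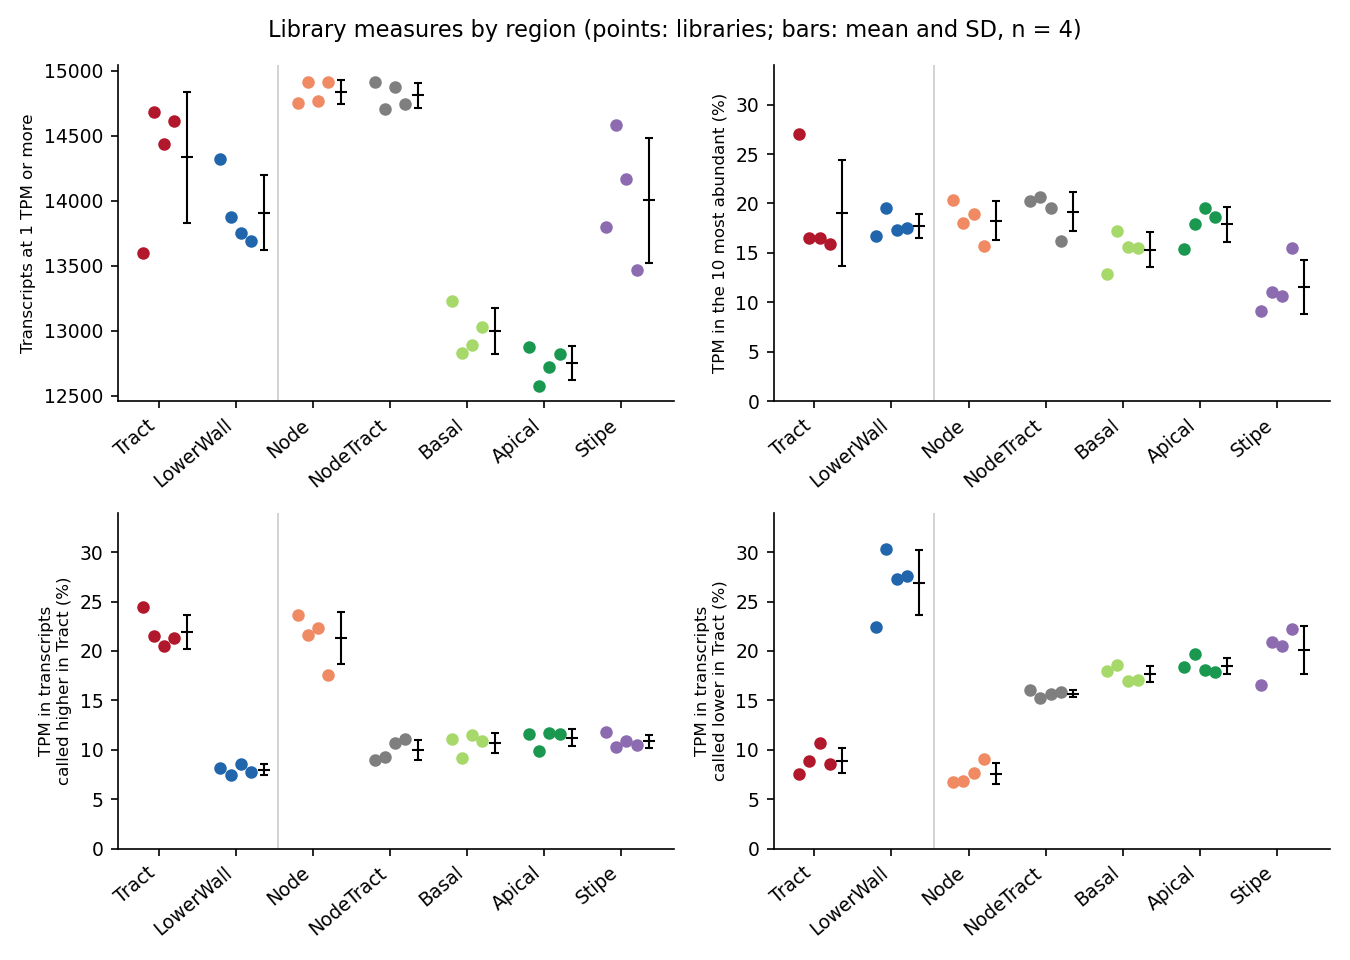
Measures of each Spirodela library by region, with points for libraries and bars for the mean and SD (n = 4 each); the upper panels show how many transcripts reached 1 TPM (axis not from 0) and the percent of TPM in the 10 most abundant, and the lower panels the percent of TPM in transcripts called higher or lower in Tract than in LowerWall. Tract replicate 1 stands at 27% in the upper right panel, and in the lower left panel Node, at 21.3%, lies beside Tract, at 21.9%, while NodeTract, at 10.02%, lies with the other regions.

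Tract and LowerWall differed in many transcripts, mostly by modest amounts. Of 15802 tested transcripts 3882 passed an adjusted p of 0.05 in limma, a linear-model test across all transcripts, or 24.6%, and 5844 had an unadjusted p under 0.05. Of the calls, 2837 (18%) were higher and 1045 (6.61%) lower in Tract. The median log2 difference, Tract minus LowerWall, was 0.95 among the transcripts called higher and -1.23 among those called lower, beside 0.24 over all tested. How many more calls were higher than lower turned on how the libraries were scaled. After rescaling by the median of ratios, which sets the typical transcript level across libraries, the median over all tested was 0.04 and the calls were 1747 higher and 1727 lower. Of the 2837 transcripts called higher as deposited 1746 were called higher again, and of the 1045 called lower all 1045 were called again. Without both replicate 1 libraries 5063 were called, 4098 higher and 965 lower, of which 2525 and 827 were among the original calls.

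Large differences were few and more evenly split. An absolute log2 difference of at least 2 was reached by 472 called transcripts (2.99% of those tested), 256 higher (1.62%) and 216 lower (1.37%) in Tract. At least 3 was reached by 73 higher and 59 lower, at least 4 by 12 and 5, and at least 5 by 5 and 2. After rescaling 236 of the 256 and all 216 were called again in the same direction. Without both replicate 1 libraries 602 transcripts reached 2. The count of 472 was 793 with a pseudocount of 0.1 in place of 1. The 4 Tract libraries lay wholly above the 4 LowerWall libraries for 2334 transcripts (14.8%) and wholly below for 832 (5.27%), 3166 in all (20%). Presence against absence was rarer: 14 transcripts had at least 1 TPM in each Tract library and were listed at 0 in each LowerWall library, and 4 showed the opposite. The highest Tract mean among the 14 was 26.8 TPM, and the highest LowerWall mean among the 4 was 17.7 TPM, so these were not abundant transcripts.

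**Figure D2:**
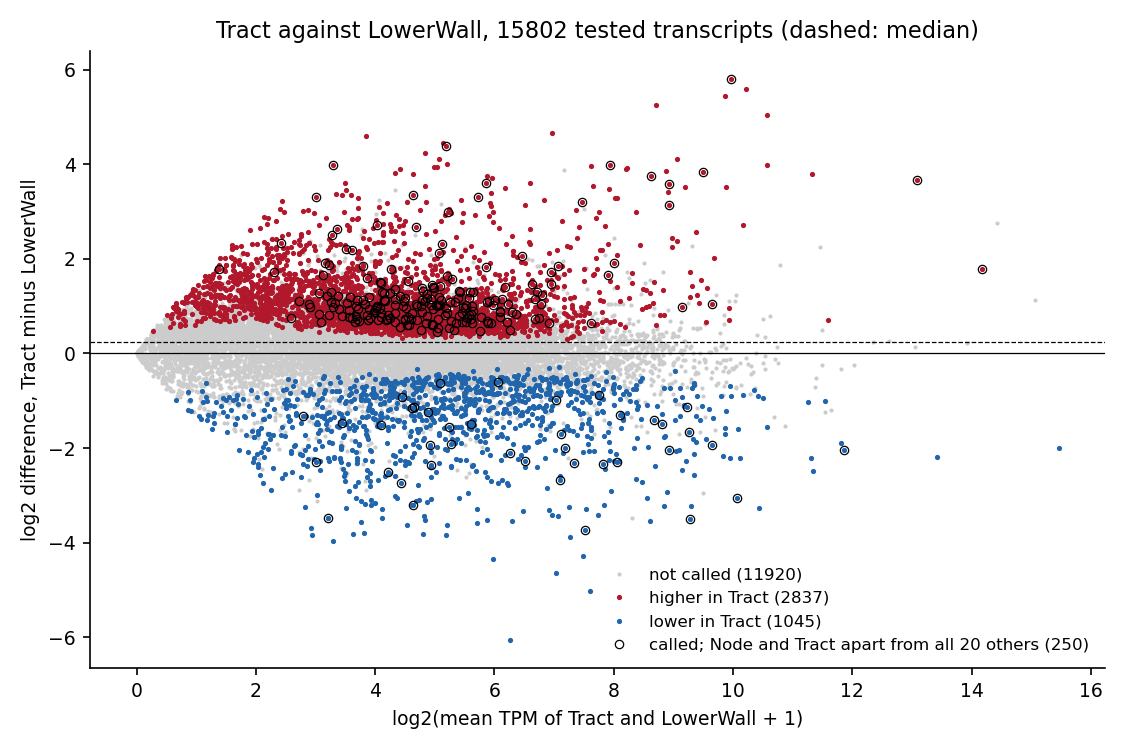
Log2 difference of each tested transcript, Tract minus LowerWall, against its log2 mean TPM in both regions; red points were called higher in Tract, blue points lower, grey points not called, and open circles mark called transcripts whose Node and Tract libraries all lie on one side of the 20 others. Red points outnumber blue ones, 2837 against 1045, mainly at low and middle levels on the TPM scale as deposited, and the dashed median lies at 0.24.

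The direction of the calls changed with abundance. Among 8683 transcripts with a mean of 10 to 100 TPM over the 28 libraries, 21.4% were called higher and 6.41% lower in Tract. Between 100 and 1000 TPM the shares were 11.4% and 15.0% of 1689 transcripts. At 1000 TPM or more, 6 of 85 were called higher and 25 lower, with a median log2 difference of -0.33. Abundant transcripts were thus more often called lower in Tract, and those of middle abundance more often called higher, on the TPM scale as deposited.

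The 10 most abundant transcripts of each region, 6 of them in common, held calls in both directions. Of the 10 of Tract 3 were called higher and 1 lower in Tract, and of the 10 of LowerWall 1 was called higher and 4 lower, counts that ranking by each region's own mean favours. Over all tested, 18% were called higher and 6.61% lower. Among the 85 transcripts at 1000 TPM or more the shares were 7.06% and 29.4%. The transcript with the highest LowerWall mean had 15282, 18345, 19233 and 15262 TPM in Tract replicates 1 to 4, against 34135, 102180, 76454 and 79294 TPM in LowerWall replicates 1 to 4. The groups did not overlap, LowerWall replicate 1 being the closest to Tract, and the log2 difference was -2.001 (limma adjusted p = 0.00631). Its mean was 31182 ± 2791 TPM in Apical and 7744 ± 1429 TPM in Node (SD, n = 4 each), and LowerWall had the highest mean of all regions. NodeTract, from the label set of LowerWall, averaged 13477 ± 4459 TPM, closer to Tract than to LowerWall. The third most abundant transcript of LowerWall averaged 3772 ± 1432 TPM in Tract and 18139 ± 10030.3 TPM in LowerWall (log2 difference -2.20, limma adjusted p = 0.0110). Its NodeTract mean, 9925 ± 6336 TPM, lay between those means.

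In the other direction, the third most abundant transcript of Tract had 35770.5, 28331, 23806 and 26782.5 TPM in Tract, against 8889, 8292, 9250 and 6564 TPM in LowerWall. Every Tract library was above every LowerWall library, at a log2 difference of 1.79 (limma adjusted p = 0.00446). Its mean was 33189.5 ± 9534 TPM in Node, but 8080 ± 1618 TPM in NodeTract (SD, n = 4 each), close to LowerWall. The sixth most abundant of Tract averaged 16011 ± 4706 TPM there and 1352 ± 661 TPM in LowerWall, a log2 difference of 3.67 (limma adjusted p = 0.000336). The most abundant transcript of Tract, at 46626.5 ± 23995 TPM against 22179 ± 14887 TPM in LowerWall, did not pass, with Tract replicate 1 highest at 81166 TPM and the groups overlapping (limma adjusted p = 0.189). It averaged 19236 ± 24076 TPM in NodeTract.

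Another abundant transcript had higher means in the pieces named for the node than in either region. The fifth most abundant of Tract had 13179, 18172.5, 27020 and 9572 TPM in Tract and 10873, 20237, 13886 and 10823 TPM in LowerWall, so the groups overlapped (log2 difference 0.23, limma adjusted p = 0.788). It averaged 81077 ± 7619 TPM in Node and 106075 ± 25274 TPM in NodeTract, pieces from different label sets (SD, n = 4 each). These transcripts were described for their rank in abundance, after their values were seen.

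Transcripts were named by the size of their difference, the first 2 in each direction among called transcripts whose libraries did not overlap and whose higher group averaged 10 TPM or more. Sp9509d003g008330_T001 had 2100, 1623, 2739 and 1340 TPM in Tract replicates 1 to 4, against 66.2, 4.33, 66.2 and 52.1 TPM in LowerWall replicates 1 to 4. All 4 Tract libraries were above all LowerWall libraries, and LowerWall replicate 2 was the lowest. The log2 difference was 5.81 (SE 0.63, limma adjusted p = 3.97e-06). It averaged 394 ± 142 TPM in Node, 147 ± 39.5 in Apical, 86.9 ± 20.0 in Basal, 30.7 ± 25.3 in NodeTract and 4.93 ± 3.97 in Stipe (SD, n = 4 each). All Node and Tract libraries were above the other 20, and NodeTract, which carries both names, overlapped LowerWall.

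Sp9509d012g001100_T001 had 4513, 1403, 1516 and 1496 TPM in Tract, against 0.598, 17.8, 238 and 361 TPM in LowerWall. Tract replicate 1 was the highest of its group, and the LowerWall libraries ran from below 1 TPM to 361 TPM. The log2 difference was 5.60 (SE 1.62, limma adjusted p = 0.0135). The call was lost without LowerWall replicate 1, at a log2 difference of 4.05 (limma adjusted p = 0.0592), without both replicate 1 libraries, at 3.65 (adjusted p = 0.103), and with only the 8 compared libraries in the fit (adjusted p = 0.0587). Its level also varied widely within Apical, at 20.1 to 853 TPM, Node, at 130 to 1755 TPM, and NodeTract, at 3.79 to 561 TPM. It was near 0 in Stipe. Levels rose with replicate number in LowerWall, NodeTract and Apical. Replicates 1 to 4 had 20.1, 98.3, 816 and 853 TPM in Apical and 3.79, 52.4, 335 and 561 TPM in NodeTract. Basal, at 22.8, 0.203, 15.2 and 187 TPM, and Tract did not follow this order. The cause was not tested.

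Sp9509d004g003780_T001 was lower in Tract. It was listed at 0 in Tract replicates 1, 2 and 3 and had 15.6 TPM in replicate 4, against 69.3, 135, 262 and 127 TPM in LowerWall. The log2 difference was -6.05 (SE 1.15, limma adjusted p = 0.000581), a size that depends on the pseudocount because of the zeros and became -8.55 with 0.1 in place of 1. It was listed at 0 in all 4 Node libraries too. It averaged 348 ± 118 TPM in Apical, 287 ± 114 in Basal, 49.9 ± 34.8 in NodeTract and 26.7 ± 26.8 in Stipe (SD, n = 4 each), so Apical and Basal had the highest means.

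Sp9509d008g001340_T001 had 0, 73.3, 21.7 and 4.80 TPM in Tract, against 171, 673, 305 and 299 TPM in LowerWall. Tract replicate 2 was the closest to LowerWall, with no overlap. The log2 difference was -5.01 (SE 1.03, limma adjusted p = 0.00117). LowerWall had the highest mean of the regions, followed by Apical at 120 ± 62.0 TPM, with 49.7 ± 49.2 in NodeTract, 28.7 ± 15.4 in Basal, 21.0 ± 24.3 in Stipe and 0.899 ± 1.80 in Node (SD, n = 4 each).

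**Figure D3:**
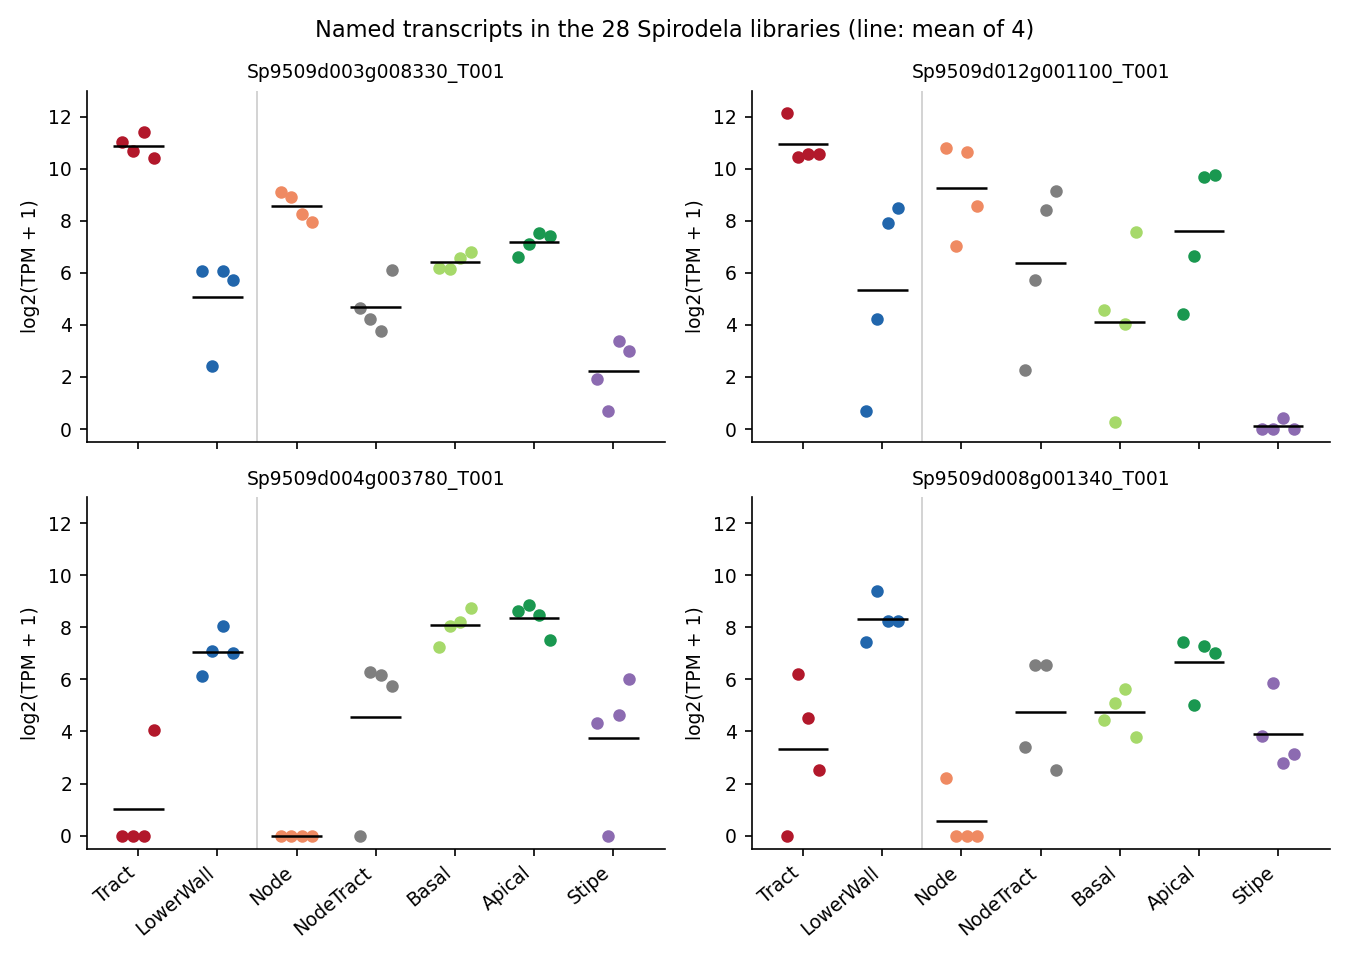
Level of the 4 named transcripts on the log2(TPM + 1) scale in each of the 28 Spirodela libraries by region, with points for libraries and a line for the mean of 4. Tract libraries lie above LowerWall for Sp9509d003g008330_T001 and Sp9509d012g001100_T001 and below for Sp9509d004g003780_T001 and Sp9509d008g001340_T001, without overlap, and NodeTract lies between 12.7 and 68.0 TPM for the first, overlapping LowerWall.

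The next 23 transcripts in each direction under the same rule gave a like picture. Those higher in Tract had log2 differences of 3.79 to 5.43 and Tract means of 17.5 to 4758 TPM. In 19 of the 23 Tract had the highest mean of all regions, a count that choosing large differences in Tract favours. The share was 21.9% among all called higher and 9.4% among all tested. Those lower in Tract had absolute log2 differences of 3.30 to 4.63 and LowerWall means of 13.2 to 1140 TPM. With the same reservation, LowerWall had the highest mean in 14 of the 23, beside 43.1% of all called lower and 7.52% of all tested. In 2 of the higher and 3 of the lower transcripts the other region was listed at 0 in all 4 libraries.

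Over all Spirodela libraries, 93 transcripts had every Tract library above the 24 others, and 93 had every LowerWall library above the 24 others, or 0.589% of those tested for each. Of these, 82 and 84 were among the calls of Tract against LowerWall, where 24.6% of all tested were called. The rule leaves no overlap between Tract and LowerWall, which favours such calls. The highest mean was 3841 TPM in the Tract group and 1629 TPM in the LowerWall group.

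Transcripts that set the Node and Tract libraries apart from all others were counted directly. All 8 Node and Tract libraries lay above the other 20 libraries for 222 transcripts and below them for 40, or 1.4% and 0.253% of those tested. This rule too favours calls, and 210 and 40 of these were among the calls higher and lower in Tract. They made up 7.40% of the higher and 3.83% of the lower calls. Of the calls with an absolute log2 difference of at least 2 they made up 9.77% of the higher and 7.87% of the lower, at least 3 19.2% and 8.47%, and at least 4 16.7% (2 of 12) and 0% (0 of 5). Since the other 20 libraries include NodeTract, these transcripts separated Tract and Node from a piece labelled with both. Whether this split goes with the regions or with the label sets was not tested. Without these transcripts 2627 higher and 1005 lower calls remained. Complete separation is a strict rule, so these counts set no bound on how many calls go with the label sets.

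What the called transcripts shared in other regions was examined in comparisons that hold no Tract and no LowerWall library. In NodeTract against the blade (a name used here for the mean of Apical and Basal), all within the label set of LowerWall, 58.4% of all tested transcripts were called, 44.1% higher and 14.3% lower. Of the transcripts higher in Tract, 44.3% were called higher and 15.4% lower there, shares close to the background. Without both replicate 1 libraries the share called higher was 59.5%, beside 45.2% of all tested. Of the transcripts lower in Tract, 20.8% were called higher and 24.7% lower in NodeTract than in the blade. Transcripts higher in Tract made up 18% of those called higher in NodeTract, equal to their 18% of all tested, and those lower in Tract made up 11.4% of those called lower, beside 6.61% of all tested.

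Node, from the label set of Tract, showed larger departures from the background. Against the blade, 70.8% of all tested transcripts were called, 56.5% higher in Node and 14.4% lower. Of those higher in Tract, 80% were called higher in Node, and of those lower in Tract, 55.6% were called lower. Against NodeTract, from the other label set, 24.9% of all tested were called, 20.5% higher in Node and 4.43% lower. Of the 2837 transcripts higher in Tract, 1813 (63.9%) were called higher and 1 lower in Node than in NodeTract. Of the 1045 lower in Tract, 432 (41.3%) were called lower and 1 higher. The transcripts higher in Tract, 18% of all tested, made up 56% of all called higher in Node than in NodeTract, and those lower in Tract, 6.61% of all tested, made up 61.7% of all called lower. After rescaling, 46.4% of the transcripts higher in Tract were called higher in Node than in NodeTract, beside 9.02% of all tested, and 47.5% of those lower in Tract were called lower, beside 8.19%. Without both replicate 1 libraries the shares were 51.7%, beside 23% of all tested, and 42.7%, beside 5.23%. All these comparisons share the spread of each transcript with the fit of Tract and LowerWall.

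Comparisons among the remaining regions, all within the label set of LowerWall, are given beside the same background. In Stipe against the blade 58% of all tested transcripts were called, 40% higher and 18% lower, and of those higher in Tract 46.4% and 20.1%. Among the 256 with a log2 difference of at least 2 the shares were 26.2% higher and 36.7% lower, the opposite balance, and of the transcripts lower in Tract 31.8% and 27.3%. In Stipe against NodeTract 45.7% were called, 19.4% higher and 26.4% lower in Stipe, of those higher in Tract 22.9% and 27.1%, and of those lower in Tract 24.7% and 18%. Among the 256, 12.5% were called higher and 41.8% lower in Stipe than in NodeTract. Basal against Apical gave few calls, 1.48% of all tested, 0.81% higher and 0.671% lower, and of those lower in Tract 3.54% were called lower in Basal.

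**Figure D4:**
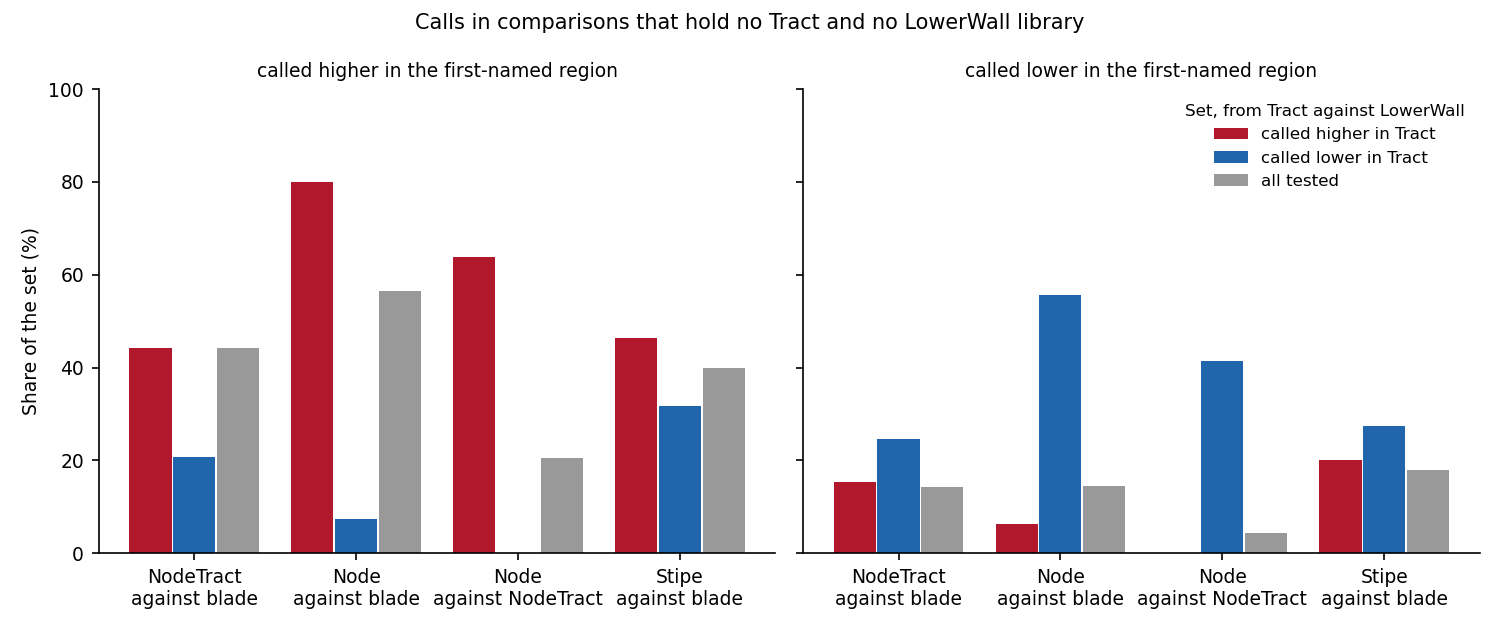
Percent of the transcripts called higher in Tract (red), called lower in Tract (blue) and of all tested (grey) that were called higher (left panel) or lower (right panel) in the first-named region, in 4 comparisons without Tract and LowerWall libraries; the blade is the mean of Apical and Basal. Red and grey bars are level for NodeTract against the blade, at 44.3% and 44.1%, and far apart for Node against NodeTract, at 63.9% and 20.5%.

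Levels in the regions that were not compared gave the same order. Among the other 5 regions Node had the highest mean for 72.2% of the transcripts higher in Tract, beside 41.5% of all tested, and NodeTract for 1.97%, beside 14.2%. For the transcripts lower in Tract Node had the lowest mean in 57.3%, beside 10.1% of all tested, and the highest mean was most often in Stipe, in 36.5%, beside 24.1%. The transcripts called higher in Tract held 21.9 ± 1.71% of the TPM in Tract and 8 ± 0.514% in LowerWall, values that the choice of the transcripts fixes. In regions that the choice did not use they held 21.3 ± 2.62% in Node, 11.2 ± 0.861% in Apical, 10.9 ± 0.652% in Stipe, 10.7 ± 0.996% in Basal and 10.02 ± 1.01% in NodeTract (SD, n = 4 each). The transcripts called lower held 8.91 ± 1.29% in Tract and 26.9 ± 3.30% in LowerWall. They held 7.57 ± 1.05% in Node, and 15.7% to 20.1% on average in the other regions.

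The following comparisons share libraries with that of Tract and LowerWall, and each is given by its own values. NodeTract differed from LowerWall, within a label set, in 4958 transcripts (31.4%), 3567 higher (22.6%) and 1391 lower (8.8%). Tract differed from Node, also within a label set, in 3936 (24.9%), 812 higher (5.14%) and 3124 lower (19.8%) in Tract. Tract differed from NodeTract in 4900 (31%), 2601 higher (16.5%) and 2299 lower (14.5%) in Tract, although both carry the name Tract. Across transcripts the mean Pearson r of Tract libraries was 0.879 with Node, 0.876 with LowerWall, 0.852 with NodeTract, 0.827 with Apical, 0.813 with Basal and 0.765 with Stipe. LowerWall libraries had a mean r of 0.867 with Apical, 0.859 with NodeTract, 0.852 with Basal, 0.798 with Node and 0.792 with Stipe. The named transcripts differed between these comparisons. Sp9509d003g008330_T001 had a log2 difference of -0.38 for NodeTract against LowerWall (limma adjusted p = 0.690) and 2.33 for Tract against Node (adjusted p = 0.0111). Sp9509d008g001340_T001 had -3.58 for NodeTract against LowerWall (limma adjusted p = 0.0113), a call in the same direction as Tract against LowerWall. Neither of the other 2 was called for NodeTract against LowerWall, Sp9509d012g001100_T001 having a log2 difference of 1.05 (limma adjusted p = 0.660) and Sp9509d004g003780_T001 one of -2.52 (limma adjusted p = 0.0984).

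Some of the large differences stood in runs of neighbouring identifiers. The identifiers fall into 20 numbered groups and are counted upwards within each, and whether this is the order along the genome is not given in the table. Of the 256 transcripts higher in Tract by at least 2 on the log2 scale, 60 (23.4%) stood directly beside another of the 256 among the tested identifiers, in 18 pairs and 7 runs of at least 3, while 3.09% of all tested transcripts stood beside one of the 256. Of the 216 lower, 45 (20.8%) did so, in 12 pairs and 6 runs of at least 3, while 2.65% of all tested stood beside one of the 216. Over all calls the shares were closer to the background: 38.4% of the transcripts called higher stood beside another such transcript, as against 32.3% of all tested, and 25.5% of those called lower, as against 12.5%. No test was made of these shares. The longest runs had 4 members in each direction. Where neighbouring genes are near-identical copies, the authors' quantification could have split reads between them, and sequence was not used here to check this.

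Among the runs of at least 3 higher in Tract, the one with the highest summed Tract mean, in group 12, had 4 members and included Sp9509d012g001100_T001. Its summed level was 7555 ± 3831 TPM in Tract and 615 ± 463 TPM in LowerWall (SD, n = 4 each), with single libraries at 4839 to 13234 TPM in Tract and 149 to 1032 TPM in LowerWall. The groups did not overlap. The same run summed to 3776 ± 2630 TPM in Node, 3260 ± 2482 in Apical, 944 ± 867 in NodeTract and 2.12 ± 2.91 in Stipe. A run of 4 in group 7 summed to 2418 ± 1121 TPM in Tract and 393 ± 292 TPM in LowerWall, with 563 ± 233 in NodeTract. A run of 3 in group 2 was listed at 0 in every LowerWall and Basal library and summed to 40.2 ± 17.9 TPM in Tract, 61.3 ± 39.6 in Node, 25.3 ± 7.03 in Stipe and 18.5 ± 4.41 in NodeTract (SD, n = 4 each). It was detected in NodeTract, within the label set of LowerWall, as well as in Tract and Node.

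Among the runs lower in Tract, one of 4 in group 8 summed to 731 ± 624 TPM in Tract and 2855 ± 1070 TPM in LowerWall, with 8366 ± 1472 in Apical and 7045 ± 1488 in Basal (SD, n = 4 each). Tract libraries lay at 154 to 1467 TPM and LowerWall libraries at 1668 to 4070 TPM, without overlap. Its means were higher in Apical and Basal than in either region compared, and the NodeTract mean, 1458 ± 345 TPM, lay between Tract and LowerWall. A run of 4 in group 2 summed to 15.0 ± 18.1 TPM in Tract and 211 ± 152 TPM in LowerWall, with 62.4 ± 66.9 in Apical, 6.29 ± 8.41 in Node and 6.10 ± 5.13 in NodeTract (SD, n = 4 each). The summed values overlapped, with Tract at 0 to 40.4 TPM and LowerWall at 14.4 to 375 TPM. Means in NodeTract and Node, from different label sets, differed by less than their SDs. Calls as a whole were spread over the groups, with between 20.4% (group 10) and 28.5% (groups 12 and 20) of the tested transcripts called.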

How the data were processed

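The authors deposited TPM with 1 column for each library. Salmon 1.10.0 is named in the submitters' processing notes. The indexed transcripts and any filter were not given in the sources used here. In all, the table held 16332 transcripts, each above 2 TPM in at least 1 library, and columns summed to between 999671 and 999911 TPM. Each gene identifier had 1 transcript. Depth cannot be had from TPM, and no interval is given for single values. The numbers on the Node columns differ from those in the labels, so its 4 libraries carry no number here.

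Tract was compared with LowerWall, without pairing, in limma 3.58.1 (R 4.3.3) on log2(TPM + 1), with all 28 Spirodela libraries in the model, a mean-variance trend and Benjamini-Hochberg adjustment over 15802 transcripts with at least 1 TPM in at least 4 libraries. Calls had an adjusted p under 0.05. Differences on this scale understate the fold of low transcripts. An exact permutation test, two-sided, was used for the library measures. The fit was tested on simulated data. Transcripts were named by a rule: of the called transcripts without overlap, the 2 with the greatest difference each way whose higher group averaged 10 TPM or more. The regions, lists and rules were chosen with earlier results of these data known. Alternatives were a pseudocount of 0.1, no filter, a filter at 5 TPM, rescaling, a fit of the 8 libraries alone with and without a replicate block, library weights, and leaving out each library. Summing over transcripts of a gene would change nothing and was not run. Leaving out both replicate 1 libraries or the transcripts that separate the label sets was chosen after seeing the data.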

Additional observations from a re-analysis of the deposited data

Results flagged for a closer look

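Tract replicate 1 stood far from the other 3 Tract libraries in the share of TPM held by its 10 most abundant transcripts, at 27%, with a gap of 0.944 of the group's range. It also stood apart for Sp9509d012g001100_T001, at 4513 TPM, with a gap of 0.964 of the range. For Sp9509d004g003780_T001 Tract replicate 4 stood apart at 15.6 TPM, the other Tract libraries being listed at 0. These were 3 of 18 groups of 4 libraries examined. A chance rate of about 1 in 20 would hold only for independent, normally spread values. The named transcripts were picked from these data for large differences, and Tract replicate 1 was marked more than once. Where all other libraries of a group are listed at 0, the gap equals the range at any level. Whether 3 of 18 is more than chance would give therefore cannot be decided here.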

How the results depend on the processing

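The count of 3882 calls, 2837 higher and 1045 lower, was 1909 (1358 and 551) with only the 8 compared libraries in the fit and 5846 (4470 and 1376) with library weights, where Tract replicate 1 was weighted 0.286 and LowerWall replicate 1 0.312. Rescaling gave 1747 higher and 1727 lower. The replicate numbers were not taken to pair Tract with LowerWall. Deviations of same-numbered libraries correlated at 0.0574, 0.0444, 0.103 and -0.0557, where differently numbered ones ranged from -0.224 to 0.197. With so few libraries this cannot exclude pairing. With the number as a replicate block in the fit of 8 there were 935 calls, 575 higher and 360 lower, and 272 with an absolute log2 difference of at least 2; that block also costs residual degrees of freedom. A pseudocount of 0.1 raised the large differences from 472 to 793, as low transcripts then spread further. Leaving out single libraries gave 2886 (without Tract replicate 2) to 4843 (without Tract replicate 1) calls, 1954 to 3984 higher, 797 to 1195 lower, 416 to 538 large, and a median log2 difference of 0.16 to 0.34. The difference in detected transcripts, 423.5 in favour of Tract, ranged from 306 to 668 on leaving out single libraries, was 309 after rescaling and 673 at a minimum of 5 TPM, and passed in none of these (smallest exact permutation p 0.0571; 0.375 within pairs of the same number, where 0.125 is the smallest that 4 pairs can give). The difference in the share of the 10 most abundant, 1.24 percentage points, turned to -1.63 for the 100 most abundant, and ranged from -1.44 to 2.26 on leaving out single libraries; the cause was not tested. The named transcripts kept their direction under every alternative run. Sp9509d012g001100_T001 lost its call in the fit of 8 (limma adjusted p = 0.0587; 0.111 with the replicate block), without LowerWall replicate 1 and without both replicate 1 libraries; the others kept theirs.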
